A study of Mus musculus with 12 samples.

Results

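This account covers the siRNA experiment in 10T1/2 cells, a mouse mesenchymal stem cell line that can take up fat, cartilage, bone or muscle fates. Its members are 4 of the 12 arrays of the study, chosen by the cell line, the siRNA and the time in the labels. They are one array labelled si-Setdb1 and one si-Ctr (negative control siRNA) taken at 0 hr, before dexamethasone, and one labelled si-Setdb1 and one si-Ctr taken after 48 hr in differentiation medium with 0.25 µM dexamethasone. All 4 cultures grew in medium with serum and were transfected on day -5 and again on day 0. A single siRNA sequence was used for Setdb1, and total RNA was hybridised to Affymetrix mouse arrays of 45101 probe sets. The remaining 8 arrays are of 3T3-L1 preadipocytes, of which the 6 with si-Setdb1 or si-Ctr lend their spread to the test used below. They form 3 pairs, at 0 hr in experiments A and B and after 36 hr of dexamethasone in experiment A. The experiment B arrays stood apart, with median signals of 14.9 to 18.1, and without them the test called 0 genes, as it did with them.

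Setdb1 is a histone methyltransferase that places the repressive trimethyl mark on lysine 9 of histone H3. Atf7ip (also called Mcaf1) is its partner and stabilises it, and Mbd1 is a protein that binds methylated DNA and recruits this complex. In preadipocytes Setdb1 is known to hold back genes of the fat programme, including Cebpa, whose product drives fat cell differentiation together with Pparg. Mesenchymal cells can instead enter the cartilage lineage under the transcription factors Sox9, Sox5 and Sox6, which activate Col2a1 and Acan, the genes of the main cartilage collagen and proteoglycan.

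4 promoter windows are printed because their genes are described below, fat genes that gave higher signals in the cells labelled si-Setdb1 and cartilage genes that gave lower ones. Each runs from 250 bases before to 50 after the start of the gene, as RefSeq gives it on GRCm38.p6, with CG dinucleotides, the sites of DNA methylation, in capitals. Cebpa lies at chr7:35119043-35119342 on the plus strand, Adipoq at chr16:23146286-23146585 on the plus strand, Acan at chr7:79052976-79053275 on the plus strand and Cnmd at chr14:79662134-79662433 on the minus strand.
Cebpa: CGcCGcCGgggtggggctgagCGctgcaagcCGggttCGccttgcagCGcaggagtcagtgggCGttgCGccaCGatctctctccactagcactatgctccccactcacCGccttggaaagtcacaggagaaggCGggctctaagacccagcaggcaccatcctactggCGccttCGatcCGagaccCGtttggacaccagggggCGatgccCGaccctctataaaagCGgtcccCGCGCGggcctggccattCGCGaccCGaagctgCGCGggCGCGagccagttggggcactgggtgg
Adipoq: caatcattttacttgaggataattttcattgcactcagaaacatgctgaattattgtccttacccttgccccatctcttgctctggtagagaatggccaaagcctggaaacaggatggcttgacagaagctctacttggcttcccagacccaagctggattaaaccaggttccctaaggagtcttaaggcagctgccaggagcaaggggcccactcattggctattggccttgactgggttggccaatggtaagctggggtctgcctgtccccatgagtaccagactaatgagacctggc
Acan: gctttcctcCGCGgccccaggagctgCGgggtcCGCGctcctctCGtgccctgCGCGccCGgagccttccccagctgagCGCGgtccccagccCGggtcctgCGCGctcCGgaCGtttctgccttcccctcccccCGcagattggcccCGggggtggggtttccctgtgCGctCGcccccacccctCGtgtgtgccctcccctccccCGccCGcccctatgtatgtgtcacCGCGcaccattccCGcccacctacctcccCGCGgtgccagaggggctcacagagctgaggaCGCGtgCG
Cnmd: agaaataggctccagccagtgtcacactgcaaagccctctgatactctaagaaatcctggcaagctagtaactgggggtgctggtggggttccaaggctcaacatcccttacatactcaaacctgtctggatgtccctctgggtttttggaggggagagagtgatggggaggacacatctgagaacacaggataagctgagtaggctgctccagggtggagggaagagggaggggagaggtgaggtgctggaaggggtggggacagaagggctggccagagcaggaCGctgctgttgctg
The windows of Cebpa and Acan hold 29 and 31 CG, against 0 in that of Adipoq and 1 in that of Cnmd, so CG-rich and CG-poor starts occur on both sides. Across the 9383 tested genes with a window, the median was 21 CG and 99.6% held at least 1. The median was 17 over the 53 genes with a window among those higher in both pairs and 16 over the 51 among those lower in both pairs. The lower quartile was 14 over all tested genes with a window, 6 over those higher and 4 over those lower. The upper quartiles were 28, 28 and 28.5.

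The targeted gene was read first. Its brightest probe set gave a signal of 157.8 in the array labelled si-Setdb1 and 124.3 in the si-Ctr array at 0 hr, and of 209 in the array labelled si-Setdb1 and 120.5 in the si-Ctr array at 48 hr. Both arrays labelled si-Setdb1 thus lay above both si-Ctr arrays, by log2 differences of 0.33 and 0.78 (mean 0.55 ± 0.19 SE, limma adjusted p = 0.274). A dimmer probe set gave 7.3 (labelled si-Setdb1) and 6.8 (si-Ctr) at 0 hr and 14.0 (labelled si-Setdb1) and 7.2 (si-Ctr) at 48 hr. The dimmest one gave 0.6 (labelled si-Setdb1) and 2.8 (si-Ctr) at 0 hr and 0.4 (labelled si-Setdb1) and 1.6 (si-Ctr) at 48 hr, all far under the signal of 7.67 used as the filter on dim genes. Averaged over its 3 probe sets on the log2 scale, Setdb1 was 0.080 lower, the other direction. The brightest probe set therefore goes against the label, and every direction below is that of the arrays labelled si-Setdb1.

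Its partners were also higher. Atf7ip gave 502.6 (labelled si-Setdb1) and 128.3 (si-Ctr) at 0 hr and 358.9 (labelled si-Setdb1) and 105.9 (si-Ctr) at 48 hr. Mbd1 gave 347.8 (labelled si-Setdb1) and 192.8 (si-Ctr) at 0 hr and 529.3 (labelled si-Setdb1) and 195.9 (si-Ctr) at 48 hr. For both genes the 2 arrays labelled si-Setdb1 stood above the 2 si-Ctr arrays, with mean differences of 1.80 ± 0.17 and 1.11 ± 0.26 (SE, limma adjusted p = 0.0804 and 0.178), that of Mbd1 being 0.58 with the mean of its probe sets. Among 31 tested genes of H3K9 methylation, HUSH silencing and DNA methylation, Atf7ip alone was at least 2-fold higher in both pairs.

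The cells kept most of a mesenchymal signature. All 12 mesenchymal and fibroblast markers were measured, and 11 or 12 of them had signals of at least 100 in each array, with summed signals of 47273.6 (labelled si-Setdb1) and 44846.1 (si-Ctr) at 0 hr and 42641.3 (labelled si-Setdb1) and 48661.4 (si-Ctr) at 48 hr. Lum was the 1 of these 12 markers at least 2-fold lower in both pairs, with differences of -2.64 and -3.74. Of 20 markers of epithelium, endothelium, blood, red cells, liver and neural cells, 19 were measured. None exceeded 35.1, and their sums were 115.4 to 130.3 over the 4 arrays. The median signal of the arrays was 11.2 to 12.2, and the ratio of the 3' to the 5' Gapdh control probe set, a measure of RNA integrity, was 0.9079 (labelled si-Setdb1) and 0.8705 (si-Ctr) at 0 hr and 0.8588 (labelled si-Setdb1) and 0.9333 (si-Ctr) at 48 hr. In these whole-culture samples, fewer cells of a type and less RNA per cell cannot be told apart. Each group is a single array, so a difference at a single time has no replicate, and the labels do not say whether the cultures of the 2 times were started separately.

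The question put to the data was which genes differed between the siRNAs before dexamethasone, after 48 hr of it, or at both times. A difference is the log2 of the array labelled si-Setdb1 minus that of the si-Ctr array of the same time, after quantile normalisation, so that 1 means 2-fold. Among 10816 genes whose signal averaged at least 16 over the 4 arrays, 185 were at least 2-fold higher and 154 at least 2-fold lower at 0 hr, and 327 were higher and 322 lower at 48 hr. In both pairs alike, 78 genes (0.721%) were at least 2-fold higher and 63 (0.582%) at least 2-fold lower, while 6 (0.0555%) passed that size in opposite directions. Over these genes the 2 sets of differences had Pearson's r = 0.49, given as a description since genes are not replicates, and their SD was 0.42 at 0 hr and 0.54 at 48 hr.

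The limma fit with the pair as a block called 0 of 12402 tested genes (0%) at an adjusted p under 0.05, where 1938 had an unadjusted p under 0.05 and the smallest adjusted p was 0.0536. That outcome rests on how the spread is modelled. Allowing the variance to follow the signal level, the same fit called 147 genes higher (1.19%) and 130 lower (1.05%), among them 54 of the 78 and 44 of the 63 that were selected for their size in both pairs. Since the fit with a constant prior variance was the one chosen, no gene is described below as passing the test, and sizes and per-array values carry the account. Many named genes were picked for size or small p in these same arrays. Whether their arrays overlap between the siRNAs is therefore a description and adds no support. The share of all tested genes with such separation was not counted.

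**Figure D1:**
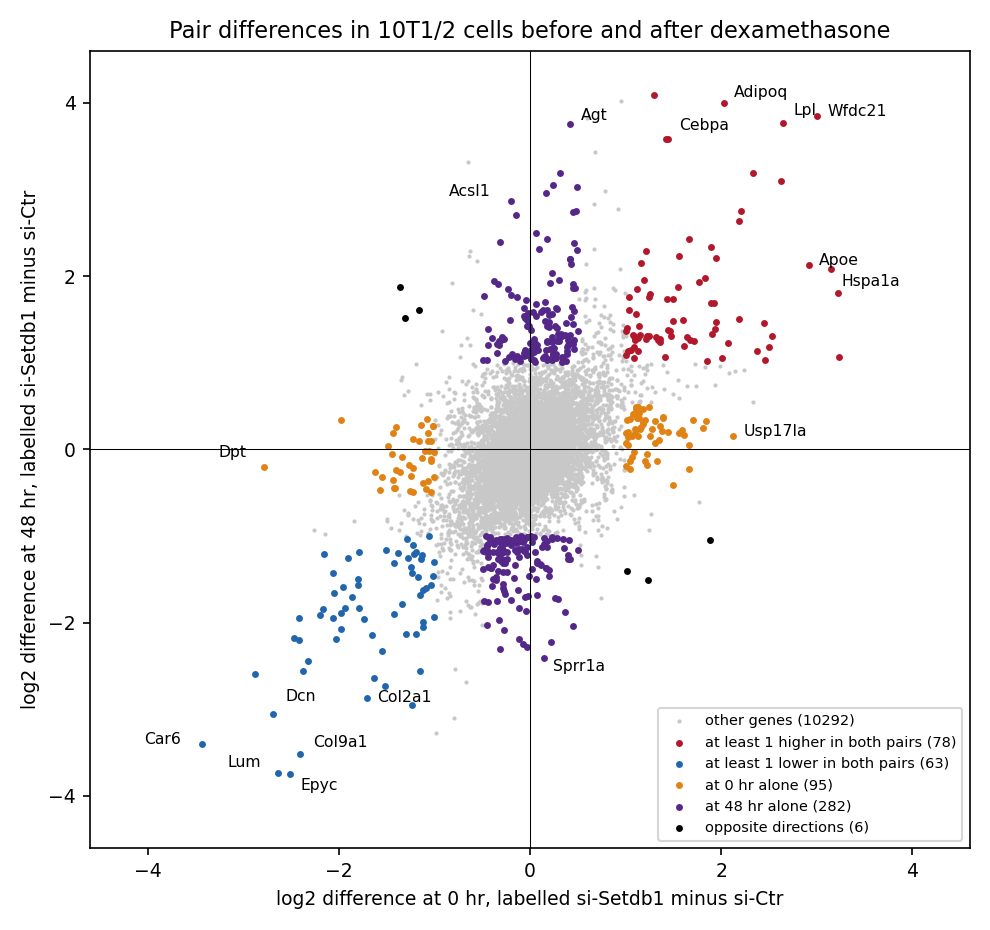
Each point is one of 10816 genes, with the log2 difference (labelled si-Setdb1 minus si-Ctr) at 0 hr on the horizontal axis and at 48 hr on the vertical axis, coloured by class. Fat genes such as Lpl, Adipoq and Cebpa lie at the upper right, and matrix and cartilage genes such as Dcn, Lum, Epyc and Col9a1 at the lower left.

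Genes of fat cells were among those higher at both times. Lpl, the lipase that releases fatty acids from circulating lipoproteins, gave 203 (labelled si-Setdb1) and 29.5 (si-Ctr) at 0 hr and 1450.4 (labelled si-Setdb1) and 92.2 (si-Ctr) at 48 hr. Both arrays labelled si-Setdb1 exceeded both si-Ctr arrays, and the mean difference was 3.20 ± 0.28 (SE, limma adjusted p = 0.0752), a fold of 9.22. Cebpa gave 152.8 (labelled si-Setdb1) and 53.8 (si-Ctr) at 0 hr and 378.3 (labelled si-Setdb1) and 27.4 (si-Ctr) at 48 hr. Its arrays also did not overlap, and the distance was wider at 48 hr, with differences of 1.45 at 0 hr and 3.58 at 48 hr (mean 2.52 ± 0.49 SE, limma adjusted p = 0.141).

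Adipoq, the gene of the fat cell hormone adiponectin, gave 221.6 (labelled si-Setdb1) and 51.6 (si-Ctr) at 0 hr and 4990.1 (labelled si-Setdb1) and 287.3 (si-Ctr) at 48 hr. Within each time the array labelled si-Setdb1 was the higher one, but the si-Ctr array at 48 hr lay above the array labelled si-Setdb1 at 0 hr. Fabp4, the fatty acid binding protein of fat cells, had the same ordering, with 340.3 (labelled si-Setdb1) and 84.2 (si-Ctr) at 0 hr and 9063.6 (labelled si-Setdb1) and 1885.4 (si-Ctr) at 48 hr. Mean differences were 3.01 ± 0.56 for Adipoq and 2.08 ± 0.62 for Fabp4 (SE, limma adjusted p = 0.136 and 0.236).

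Apolipoprotein genes were higher as well. Apoe, a carrier of cholesterol and other lipids, gave 520.1 (labelled si-Setdb1) and 64.8 (si-Ctr) at 0 hr and 779.5 (labelled si-Setdb1) and 166.6 (si-Ctr) at 48 hr. Its neighbour Apoc1 gave 83.4 (labelled si-Setdb1) and 20.9 (si-Ctr) at 0 hr and 83.8 (labelled si-Setdb1) and 24.3 (si-Ctr) at 48 hr. Neither gene's arrays overlapped between the siRNAs. Plaat3, a phospholipase of fat tissue, gave 697.4 (labelled si-Setdb1) and 182.9 (si-Ctr) at 0 hr and 2935.4 (labelled si-Setdb1) and 517.9 (si-Ctr) at 48 hr, a mean difference of 2.11 ± 0.15 (SE, limma adjusted p = 0.0657) that both of its bright probe sets shared in direction.

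Of 26 transcription factors of fat cell formation, 23 were tested, with 12 positive and 8 negative in both pairs, and 0 called by limma. In all 12402 tested genes 30.3% were positive and 32.6% negative in both pairs. Cebpa and Zfp423, a factor that commits mesenchymal cells to the fat lineage, were at least 2-fold higher in both pairs. Zfp423 gave 265.3 (labelled si-Setdb1) and 91.7 (si-Ctr) at 0 hr and 214.7 (labelled si-Setdb1) and 83 (si-Ctr) at 48 hr, so that its difference was nearly the same at both times (1.48 and 1.31).

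Pparg, the receptor at the centre of the fat programme, gave 341.3 (labelled si-Setdb1) and 264.6 (si-Ctr) at 0 hr and 990.5 (labelled si-Setdb1) and 380 (si-Ctr) at 48 hr. Its difference was small before dexamethasone (0.36) and over 1 after it (1.32). Srebf1, a factor that drives lipid synthesis genes, likewise differed by 0.47 at 0 hr and by 1.86 at 48 hr. Rxra, the DNA-binding partner of Pparg, was higher by 0.72 and 0.89 in its brightest probe set, but the mean difference of 0.80 became 0.25 with the mean of its probe sets. The sterol-sensing receptor gene Nr1h3 was higher by 0.78 and 1.53, a mean of 1.15 that became 0.66 with 16 added before the logarithm. Ppargc1a, a coactivator of mitochondrial genes, went the other way and gave 34.3 (labelled si-Setdb1) and 130.8 (si-Ctr) at 0 hr and 46.3 (labelled si-Setdb1) and 110.4 (si-Ctr) at 48 hr, lower in both pairs in all 5 of its bright probe sets.

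Further genes that were higher in both pairs have roles outside fat storage. Wfdc21, a secreted protein gene with the largest mean difference among the named genes higher in both pairs, gave 306.2 (labelled si-Setdb1) and 34.8 (si-Ctr) at 0 hr and 689.7 (labelled si-Setdb1) and 42 (si-Ctr) at 48 hr, a mean of 3.42 ± 0.84 (SE, limma adjusted p = 0.186). Serpina3g, a gene of the serpin family of protease inhibitors, gave 117.9 (labelled si-Setdb1) and 23.3 (si-Ctr) at 0 hr and 157.9 (labelled si-Setdb1) and 20.9 (si-Ctr) at 48 hr. Neither gene's arrays overlapped between the siRNAs. P2rx7, an ATP-gated ion channel, gave 27.3 (labelled si-Setdb1) and 3.5 (si-Ctr) at 0 hr and 69 (labelled si-Setdb1) and 7.4 (si-Ctr) at 48 hr. Itpripl2 gave 837.1 (labelled si-Setdb1) and 177.9 (si-Ctr) at 0 hr and 1000.2 (labelled si-Setdb1) and 146.3 (si-Ctr) at 48 hr. For both genes the siRNA groups did not overlap, with mean differences of 2.86 ± 0.20 and 2.41 ± 0.20 (SE, limma adjusted p = 0.0657 and 0.0752). Both si-Ctr signals of P2rx7 were under the filter signal of 7.67, so its size leans on the constant added before the logarithm, and its mean became 1.56 with 16 added and 1.56 with the mean of its probe sets. Hspa1a, the inducible heat shock protein, gave 106 (labelled si-Setdb1) and 10 (si-Ctr) at 0 hr and 92.1 (labelled si-Setdb1) and 20.1 (si-Ctr) at 48 hr, and it was the single gene of 23 in the heat shock and unfolded protein list to reach 2-fold in both pairs.

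Nnmt, which methylates nicotinamide, gave 10 (labelled si-Setdb1) and 1.3 (si-Ctr) at 0 hr and 183.2 (labelled si-Setdb1) and 17.7 (si-Ctr) at 48 hr. Because its si-Ctr signal at 0 hr was under the filter signal, the size of that difference leans on that constant, and its mean of 2.76 became 1.58 with 16 added. The microsomal glutathione transferase gene Mgst1 was bright and evenly higher, at 916.8 (labelled si-Setdb1) and 361.1 (si-Ctr) at 0 hr and 3796.6 (labelled si-Setdb1) and 1462.6 (si-Ctr) at 48 hr, a difference of 1.31 ± 0.12 (SE, limma adjusted p = 0.0752). The IGF axis gave 2 such genes among 13 with enough signal. Igf2, a growth factor gene, differed by 1.15 and 1.32 in its brightest probe set, a mean of 1.24 that became 0.50 with the mean of its probe sets. Igfbp4, whose protein binds insulin-like growth factors, differed by 2.46 and 1.03. Pappa2, a protease that cleaves such binding proteins, gave 201.2 (labelled si-Setdb1) and 19 (si-Ctr) at 0 hr and 102.1 (labelled si-Setdb1) and 27.1 (si-Ctr) at 48 hr.

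Targets of p53 and cell cycle inhibitors leaned upward. Of 24 tested members, 16 were positive and 5 negative in both pairs and 0 were called by limma, with median differences of 0.38 at 0 hr and 0.54 at 48 hr, where the medians of all tested genes were 0.0055 and -0.027. Among all tested genes, 30.3% were positive and 32.6% negative in both pairs. Zmat3, an RNA-binding p53 target, gave 389.1 (labelled si-Setdb1) and 106.1 (si-Ctr) at 0 hr and 402.7 (labelled si-Setdb1) and 95.1 (si-Ctr) at 48 hr. Ccng1, a cyclin induced by p53, gave 3183.1 (labelled si-Setdb1) and 1468.5 (si-Ctr) at 0 hr and 3732.3 (labelled si-Setdb1) and 1700.9 (si-Ctr) at 48 hr. These 2 genes were the ones of 22 with enough signal that reached 2-fold in both pairs, and all 3 bright probe sets of Ccng1 had the same direction. Fas, a death receptor gene, differed by 1.21 and 0.87. Gdf15, a stress-induced secreted factor, gave 17.2 (labelled si-Setdb1) and 2.5 (si-Ctr) at 0 hr and 19.9 (labelled si-Setdb1) and 2 (si-Ctr) at 48 hr. Its si-Ctr signals were far under the filter signal, so no exact size is given, and the difference of 0.98 with 16 added was well below that with 0.8 added.

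Some matrix and cartilage genes were among those lower at both times. Dcn, the gene of the small leucine-rich proteoglycan decorin, gave 253.8 (labelled si-Setdb1) and 1682.8 (si-Ctr) at 0 hr and 452.6 (labelled si-Setdb1) and 3979.5 (si-Ctr) at 48 hr. Lum, its relative lumican, gave 128.2 (labelled si-Setdb1) and 844.2 (si-Ctr) at 0 hr and 78.9 (labelled si-Setdb1) and 1234.3 (si-Ctr) at 48 hr. Both arrays labelled si-Setdb1 lay below both si-Ctr arrays in each gene, with mean differences of -2.87 ± 0.20 and -3.19 ± 0.57 (SE, limma adjusted p = 0.0657 and 0.135). Fmod (fibromodulin), of the same family, was lower by 1.15 and 2.55 in size, and each of its 6 bright probe sets was lower in both pairs. Dcn, Lum and Fmod were the 3 of 19 genes with enough signal in the list of other matrix genes that were at least 2-fold lower in both pairs. Of its 20 tested members, 3 were positive and 8 negative in both pairs, with medians of 0.029 and -0.41 and 0 called by limma. Over all 12402 tested genes, 30.3% were positive and 32.6% negative in both pairs. Bgn differed by -0.019 and -0.21, and Ogn by -0.28 and -0.79.

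Col2a1, the collagen that makes up most of cartilage matrix, gave 852.4 (labelled si-Setdb1) and 2796.9 (si-Ctr) at 0 hr and 274.5 (labelled si-Setdb1) and 2203.1 (si-Ctr) at 48 hr. Col9a1, a collagen bound to its fibrils, gave 205.6 (labelled si-Setdb1) and 1137.9 (si-Ctr) at 0 hr and 80.6 (labelled si-Setdb1) and 1056.7 (si-Ctr) at 48 hr. No array labelled si-Setdb1 reached a si-Ctr array for either collagen. The mean differences were -2.29 ± 0.40 and -2.96 ± 0.51 (SE, limma adjusted p = 0.132 and 0.129). Col11a1, another collagen of cartilage fibrils, was lower by 1.80 and 1.57 in size.

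Cnmd, the gene of chondromodulin, a cartilage protein that holds back blood vessels, gave 458.1 (labelled si-Setdb1) and 2445 (si-Ctr) at 0 hr and 601.6 (labelled si-Setdb1) and 3714.7 (si-Ctr) at 48 hr. Epyc, a proteoglycan gene of growing cartilage, gave 118.9 (labelled si-Setdb1) and 713.1 (si-Ctr) at 0 hr and 46.6 (labelled si-Setdb1) and 709.9 (si-Ctr) at 48 hr. Both stood well apart between the siRNAs, with mean differences of -2.47 ± 0.39 and -3.13 ± 0.34 (SE, limma adjusted p = 0.117 and 0.0804). Acan gave 7.2 (labelled si-Setdb1) and 32 (si-Ctr) at 0 hr and 9 (labelled si-Setdb1) and 32.4 (si-Ctr) at 48 hr, a dimmer gene with the same separation. Ucma, a protein secreted by cartilage cells, gave 4.9 (labelled si-Setdb1) and 44.3 (si-Ctr) at 0 hr and 14.6 (labelled si-Setdb1) and 93.2 (si-Ctr) at 48 hr.

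The regulators were lower too, Sox9 by at least 2-fold at 48 hr alone. That timing is a description by size, since limma's test between the times, given below, called 0 of 12402 genes. Sox5 gave 9.2 (labelled si-Setdb1) and 49.8 (si-Ctr) at 0 hr and 5.9 (labelled si-Setdb1) and 22.4 (si-Ctr) at 48 hr, lower in both pairs. Sox6 gave 26.5 (labelled si-Setdb1) and 76.8 (si-Ctr) at 0 hr and 34.3 (labelled si-Setdb1) and 79 (si-Ctr) at 48 hr, also lower in both. Sox6 averaged under the filter over all 12 arrays and was not tested, so the counts of genes given here leave it out. With 16 added before the logarithm, the mean differences of the dim genes Acan, Ucma and Sox5 were -1.04, -1.69 and -1.12, in place of -1.89, -2.73 and -2.05. Sox9, the factor at the head of the lineage, gave 840 (labelled si-Setdb1) and 1032.1 (si-Ctr) at 0 hr and 426.2 (labelled si-Setdb1) and 906.4 (si-Ctr) at 48 hr, so its difference was -0.29 at 0 hr and -1.04 at 48 hr. A list of 28 cartilage matrix and regulator genes, drawn up after these values were seen, had 18 tested members, of which 0 were positive and 17 negative in both pairs. Of its 17 members with enough signal, 12 were at least 2-fold lower in both pairs, among them Papss2 (-1.65 and -2.15), which supplies sulphate for proteoglycans, and Wwp2 (-1.43 and -1.32). The median of the tested members was -1.68 at 0 hr and -1.92 at 48 hr, and being picked on these values the list is a description alone.

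The wider bone and cartilage list had 14 of 23 genes tested, with 1 positive and 6 negative in both pairs, medians of -0.19 and -0.37 and 0 called by limma. The shares of all tested genes were 30.3% positive and 32.6% negative. Acan, Col2a1 and Sox5 were the list's 3 members at least 2-fold lower in both pairs, of 11 with enough signal. A separate list of collagens, which leaves out Col2a1 and Col9a1, had 1 of 17 with enough signal, Col11a1, at least 2-fold lower in both pairs, and the median differences of its 18 tested members were -0.19 and -0.13.

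**Figure D2:**
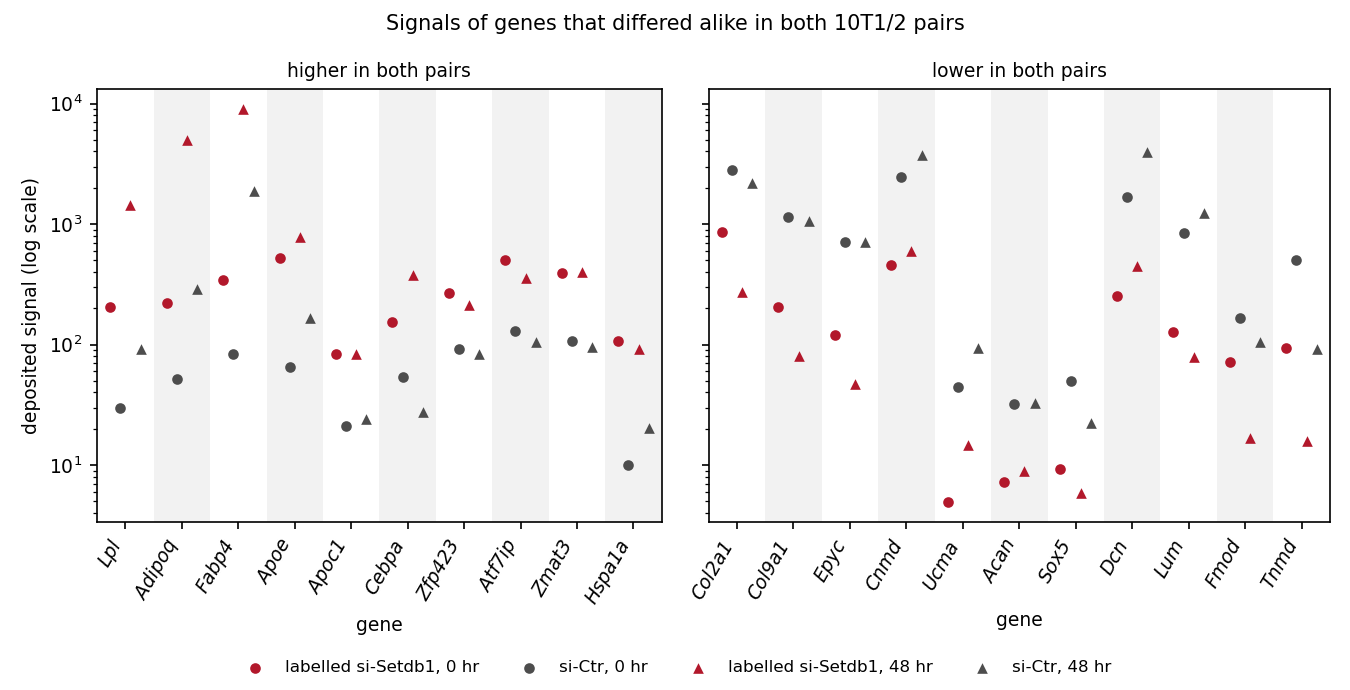
Deposited signals (log scale) of 10 genes higher and 11 genes lower in both pairs; red marks arrays labelled si-Setdb1, grey si-Ctr, circles 0 hr and triangles 48 hr. Each point is one array, and within each time the red and grey points of every gene shown are at least 2-fold apart.

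A tendon gene, a calpain-family gene and a further matrix gene were also lower in both pairs. Tnmd, the tendon gene of tenomodulin, gave 93.8 (labelled si-Setdb1) and 504.4 (si-Ctr) at 0 hr and 15.7 (labelled si-Setdb1) and 91 (si-Ctr) at 48 hr. Its array labelled si-Setdb1 at 0 hr lay just above the si-Ctr array at 48 hr, and both siRNA groups had less at 48 hr. Capn6, a calpain-family gene, gave 51.5 (labelled si-Setdb1) and 234.9 (si-Ctr) at 0 hr and 69 (labelled si-Setdb1) and 292.8 (si-Ctr) at 48 hr. Its mean difference of -2.0 ± 0.14 (SE, limma adjusted p = 0.0657) came from differences of -2.07 and -1.94, close to each other. Tgfbi, a matrix protein gene induced by TGF-beta, was lower by 1.90 and 1.26 in size in all 4 of its bright probe sets.

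Genes without a matrix role were lower too. Car6, a secreted carbonic anhydrase gene with the largest mean difference in size among the named genes lower in both pairs, gave 3.8 (labelled si-Setdb1) and 52.1 (si-Ctr) at 0 hr and 6 (labelled si-Setdb1) and 68.6 (si-Ctr) at 48 hr. Both of its arrays labelled si-Setdb1 were under the filter signal, so its mean difference of -3.41 ± 0.36 (SE, limma adjusted p = 0.0804) leans on the added constant. Npc2, the lysosomal carrier of cholesterol, gave 1107.8 (labelled si-Setdb1) and 4215.2 (si-Ctr) at 0 hr and 1558.6 (labelled si-Setdb1) and 5689.4 (si-Ctr) at 48 hr, and the long noncoding RNA Tug1 gave 346 (labelled si-Setdb1) and 840.4 (si-Ctr) at 0 hr and 409.9 (labelled si-Setdb1) and 1093.2 (si-Ctr) at 48 hr. For both, all bright probe sets (3 and 2) were lower in both pairs. Zwint, a kinetochore gene, gave 248.9 (labelled si-Setdb1) and 739.3 (si-Ctr) at 0 hr and 227.1 (labelled si-Setdb1) and 1255.8 (si-Ctr) at 48 hr. In the cell cycle list Zwint stood alone, as 1 of 32 genes with enough signal that were at least 2-fold lower in both pairs, and the list's medians were -0.14 and 0.029. With the mean of its probe sets, Zwint's mean difference of -1.94 became -0.65, which is less than 2-fold.

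At 48 hr alone, 144 genes (1.33%) were at least 2-fold higher and 138 (1.28%) at least 2-fold lower, with a difference of at most 0.5 in size at 0 hr. At 0 hr alone, the counts were 55 genes higher (0.509%) and 40 lower (0.37%). limma's test of the difference between the times called 0 of 12402 genes (0%), with 824 at an unadjusted p under 0.05 and a smallest adjusted p of 0.307. It rests on 2 residual degrees of freedom, all from 3T3-L1 pairs, so genes named by time below are described by size, and a difference between the times is not shown by the test.

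Some enzymes of triglyceride storage were among the genes higher at 48 hr alone. Acsl1, which activates fatty acids for storage, gave 317 (labelled si-Setdb1) and 365.2 (si-Ctr) at 0 hr and 3505.8 (labelled si-Setdb1) and 436.3 (si-Ctr) at 48 hr. Agpat2, which makes phosphatidic acid on the way to triglyceride, gave 189.1 (labelled si-Setdb1) and 136.7 (si-Ctr) at 0 hr and 1264.6 (labelled si-Setdb1) and 170.8 (si-Ctr) at 48 hr. One array, labelled si-Setdb1 at 48 hr, stood apart from the other 3 for both genes, which lay close together. Dgat1, which adds the last fatty acid, and Pnpla2, the first lipase of the stored fat, followed this pattern with differences of 0.21 and -0.15 at 0 hr and of 1.92 and 2.71 at 48 hr. Gpat3, which starts triglyceride synthesis, gave 11.5 (labelled si-Setdb1) and 19.5 (si-Ctr) at 0 hr and 405.3 (labelled si-Setdb1) and 35.5 (si-Ctr) at 48 hr, and lay outside that class because it was lower by 0.65 in size at 0 hr. A list of 19 genes of triglyceride storage and lipolysis, also drawn up after the values were seen, had 14 tested members with medians of -0.17 at 0 hr and 1.95 at 48 hr, and 6 of its 13 with enough signal were at least 2-fold higher at 48 hr alone.

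Agt, the gene of angiotensinogen, gave 4.4 (labelled si-Setdb1) and 2.9 (si-Ctr) at 0 hr and 615.2 (labelled si-Setdb1) and 40.1 (si-Ctr) at 48 hr. Hsd11b1, which regenerates active glucocorticoid, gave 46.7 (labelled si-Setdb1) and 33 (si-Ctr) at 0 hr and 1007.6 (labelled si-Setdb1) and 110.3 (si-Ctr) at 48 hr. In both genes the si-Ctr cells also had more at 48 hr than at 0 hr, and the cells labelled si-Setdb1 had more again. Both 0 hr signals of Agt were under the filter signal of 7.67, so a difference there could hardly be read. Ppargc1b, a coactivator related to Ppargc1a, gave 26.7 (labelled si-Setdb1) and 21.6 (si-Ctr) at 0 hr and 287.5 (labelled si-Setdb1) and 27.8 (si-Ctr) at 48 hr, opposite in direction to its relative.

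Several fat cell genes were close to 0 except in the array labelled si-Setdb1 at 48 hr. Retn, the fat cell hormone resistin, gave 2 (labelled si-Setdb1) and 1 (si-Ctr) at 0 hr and 648.3 (labelled si-Setdb1) and 4.4 (si-Ctr) at 48 hr. Cidec, a lipid droplet protein, gave 0.4 (labelled si-Setdb1) and 0.9 (si-Ctr) at 0 hr and 192.9 (labelled si-Setdb1) and 4.2 (si-Ctr) at 48 hr. Cfd, the secreted protease adipsin, gave 0.4 (labelled si-Setdb1) and 5.2 (si-Ctr) at 0 hr and 255.3 (labelled si-Setdb1) and 10.2 (si-Ctr) at 48 hr. Cidec and Cfd averaged under the filter over all arrays and were not tested, and no fold is given for these 3 genes against signals that dim.

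Over the list of fat cell lipid and secreted genes, 23 of 32 were tested, 15 were positive and 2 negative in both pairs and 0 were called by limma. Among all tested genes, 30.3% were positive and 32.6% negative. The list's median difference was 0.24 at 0 hr and 2.21 at 48 hr. Of the 18 with enough signal, 4 (Lpl, Apoe, Adipoq and Fabp4) were at least 2-fold higher in both pairs and 8 at 48 hr alone, and 0 were at least 2-fold lower at either time. Fasn, the fatty acid synthase gene, and Plin4, a lipid droplet coat gene, were among those in neither class, with 48 hr signals of 797.4 (labelled si-Setdb1) and 636.1 (si-Ctr) for Fasn and of 818.6 (labelled si-Setdb1) and 890.6 (si-Ctr) for Plin4. Lep, the gene of leptin, was at most 1.5 in all 4 arrays.

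**Figure D3:**
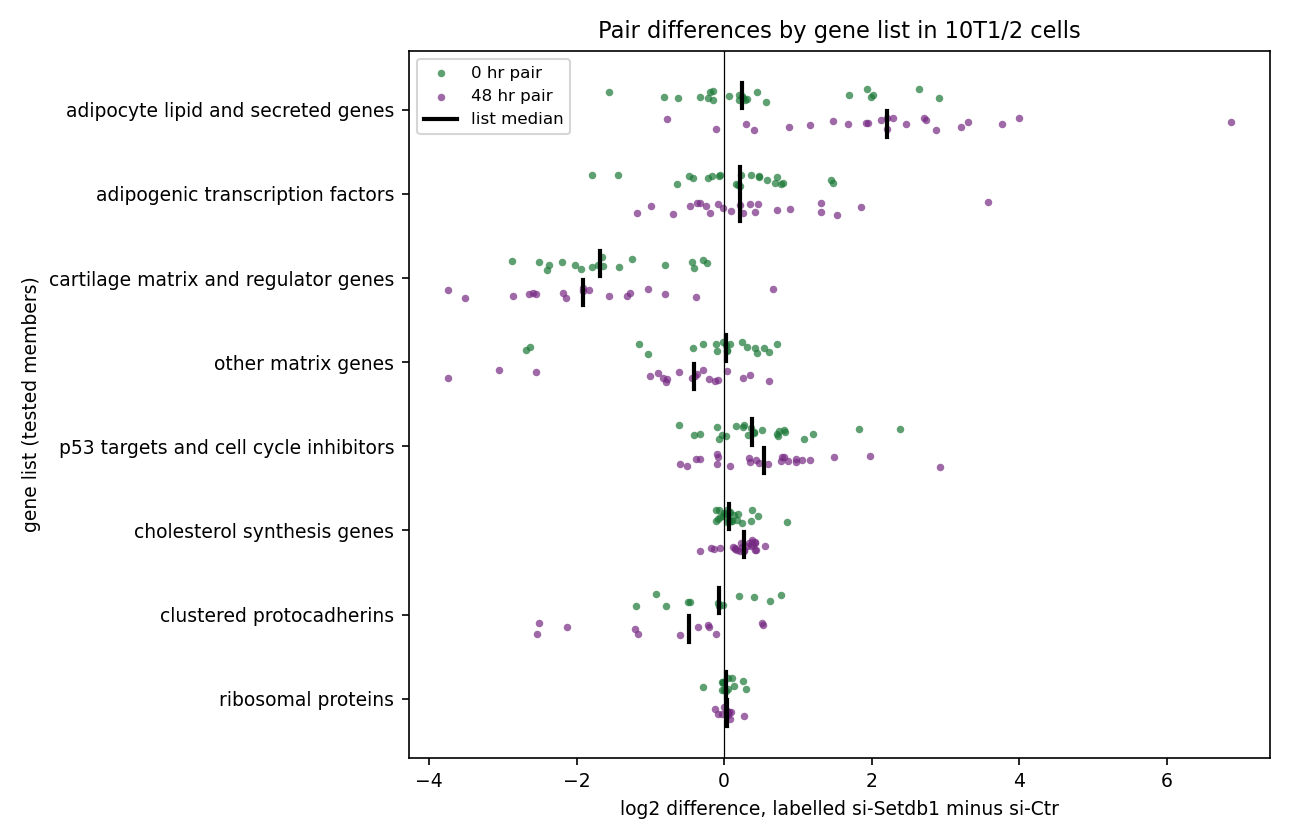
Log2 differences (labelled si-Setdb1 minus si-Ctr) of the tested members of 8 gene lists, green for the 0 hr pair and purple for the 48 hr pair, with black bars at list medians. Fat cell lipid genes have medians of 0.24 at 0 hr and 2.21 at 48 hr, and cartilage genes, listed after their values were seen, have -1.68 and -1.92. Some fat cell genes exceeded the filter signal only in the array labelled si-Setdb1 at 48 hr, so their medians are a description alone.

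Other pathways did not share this size. The 24 tested cholesterol synthesis genes had medians of 0.071 and 0.27, with 14 positive and 1 negative in both pairs and 0 at least 2-fold different at either time. The shares of all tested genes were 30.3% positive and 32.6% negative in both pairs. The 13 ribosomal protein genes tested had medians of 0.026 and 0.043. Glucocorticoid-induced genes, 17 tested, had medians of 0.19 and 0.11, and Fkbp5, a classic target of the glucocorticoid receptor, gave 79.4 (labelled si-Setdb1) and 72.7 (si-Ctr) at 0 hr and 972.1 (labelled si-Setdb1) and 587.5 (si-Ctr) at 48 hr. Both siRNA groups thus had far more Fkbp5 after dexamethasone, and the siRNA difference of 0.67 at 48 hr was small beside that.

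Genes of preadipocytes and of adipogenesis inhibitors numbered 18 tested of 20, with medians of 0.093 and -0.21 and 0 called by limma. Ly6a, the surface protein Sca-1 of mesenchymal progenitors, gave 2595.2 (labelled si-Setdb1) and 3014.2 (si-Ctr) at 0 hr and 841.5 (labelled si-Setdb1) and 2343.2 (si-Ctr) at 48 hr. Klf2, a factor that represses Pparg, gave 245 (labelled si-Setdb1) and 268.9 (si-Ctr) at 0 hr and 167.2 (labelled si-Setdb1) and 369.3 (si-Ctr) at 48 hr. With Sox9 they made up the 3 of 17 with enough signal that were lower at 48 hr alone. Cd24a, a surface protein of preadipocytes, was the single member at least 2-fold higher in both pairs, with 104 (labelled si-Setdb1) and 49.9 (si-Ctr) at 0 hr and 117.3 (labelled si-Setdb1) and 36.1 (si-Ctr) at 48 hr. Dlk1, another inhibitor, was also higher, by 1.16 at 0 hr and 0.77 at 48 hr, a mean of 0.96 that became 0.60 with the mean of its probe sets.

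The genes lower at 48 hr alone were led by dimmer and less related genes. Sprr1a, a gene of the cornified envelope, gave 49.1 (labelled si-Setdb1) and 45.2 (si-Ctr) at 0 hr and 18.5 (labelled si-Setdb1) and 105.6 (si-Ctr) at 48 hr. Pi16, a marker of fibroblast progenitors, gave 54.3 (labelled si-Setdb1) and 70.1 (si-Ctr) at 0 hr and 9.1 (labelled si-Setdb1) and 46 (si-Ctr) at 48 hr. In each, the array labelled si-Setdb1 at 48 hr was the lowest of the 4. The chemokine gene Ccl7 differed by 0.36 at 0 hr and by -1.88 at 48 hr.

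The clustered protocadherins, a family of neighbouring cell adhesion genes, had 12 of 28 members tested, 1 positive and 7 negative in both pairs, with medians of -0.075 and -0.48 and 0 called by limma. The shares of all tested genes were 30.3% positive and 32.6% negative in both pairs. Pcdhb7 was at least 2-fold lower in both pairs, with differences of -1.20 at 0 hr and -2.14 at 48 hr, and Pcdhb9 differed by -0.78 at 0 hr and -2.53 at 48 hr, which puts it in no class.

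Before dexamethasone alone, the leading genes by size belonged to no list. Some list members were also higher at 0 hr alone, such as Cxcl12 (1.14 at 0 hr and 0.36 at 48 hr) and Meg3 (1.12 and 0.44). Kctd12 gave 975.3 (labelled si-Setdb1) and 316.2 (si-Ctr) at 0 hr and 349.8 (labelled si-Setdb1) and 303 (si-Ctr) at 48 hr. Wwc1, of the Hippo pathway, gave 150.4 (labelled si-Setdb1) and 39.6 (si-Ctr) at 0 hr and 85.1 (labelled si-Setdb1) and 67.7 (si-Ctr) at 48 hr. The array labelled si-Setdb1 at 0 hr was the highest of the 4 for both. Usp17la, a deubiquitinase gene, gave 70.7 (labelled si-Setdb1) and 14.5 (si-Ctr) at 0 hr and 9.6 (labelled si-Setdb1) and 8.3 (si-Ctr) at 48 hr, and it belongs to a family of near-identical genes, so its signal may be shared with relatives.

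Lower at 0 hr alone were Dpt, Plxnb3 and Neil3 among others. Dpt, the matrix protein gene dermatopontin, gave 3.3 (labelled si-Setdb1) and 28.3 (si-Ctr) at 0 hr and 21.6 (labelled si-Setdb1) and 24.3 (si-Ctr) at 48 hr, so a single dim array sets its difference. Neil3, a DNA repair glycosylase, gave 37 (labelled si-Setdb1) and 109 (si-Ctr) at 0 hr and 28.9 (labelled si-Setdb1) and 29.5 (si-Ctr) at 48 hr, where the si-Ctr array at 0 hr was the one apart. Mt1, a metallothionein induced by glucocorticoids, gave 658.8 (labelled si-Setdb1) and 1361.5 (si-Ctr) at 0 hr and 5648.4 (labelled si-Setdb1) and 5198 (si-Ctr) at 48 hr, its siRNA difference being -1.03 at 0 hr and 0.090 at 48 hr.

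**Figure D4:**
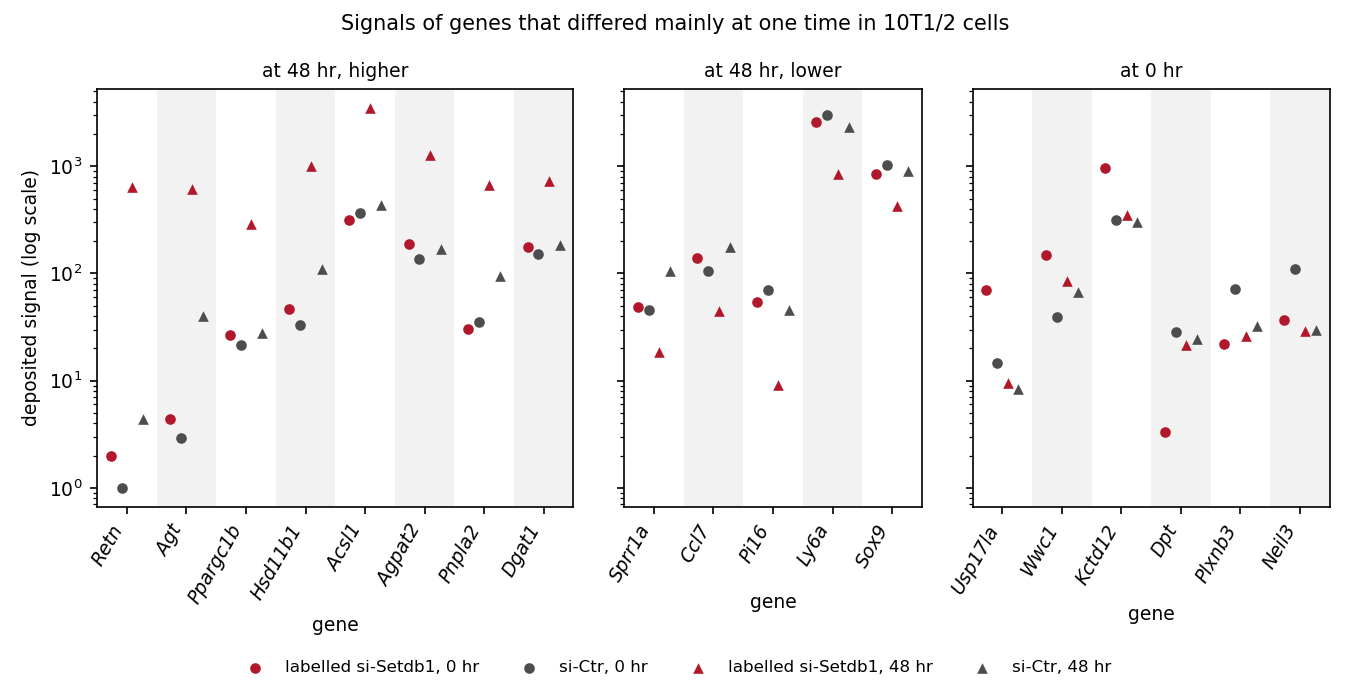
Deposited signals (log scale) of genes whose siRNA difference was at least 2-fold mainly at one time; red marks arrays labelled si-Setdb1, grey si-Ctr, circles 0 hr and triangles 48 hr. In the left panel the red triangle, the array labelled si-Setdb1 at 48 hr, stands above the other 3 points of each gene.

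The 3T3-L1 pairs show where these differences were also seen in the other line. limma's test of the 10T1/2 minus the 3T3-L1 difference called 0 of 12402 genes (0%), with 1036 at an unadjusted p under 0.05. Tug1 was lower by 1.25 and 1.36 in size in the 10T1/2 pairs and by 1.16, 1.17 and 1.20 in the 3 3T3-L1 pairs. Plaat3 was likewise close, with 1.89 and 2.33 in 10T1/2 cells and 1.67 to 1.80 in 3T3-L1 cells. Cebpa differed by 1.45 and 3.58 in 10T1/2 cells and by 2.24 to 2.50 in 3T3-L1 cells.

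Other members had unlike values in the lines. Itpripl2 differed by 2.19 and 2.63 in 10T1/2 cells and by -0.44, 0.10 and -0.36 in 3T3-L1 cells, with an unlike difference of 2.64 ± 0.26 (SE, limma adjusted p = 0.235). Lpl differed by 2.65 and 3.76 in 10T1/2 cells and by 0.63 to 0.94 in 3T3-L1 cells, whose si-Ctr arrays already gave 2562.2 to 3239.2. Adipoq and Fabp4 went the other way, with 2.02 and 4.0 for Adipoq and 1.94 and 2.21 for Fabp4 in 10T1/2 cells, against 6.26 to 7.65 and 2.94 to 5.51 in 3T3-L1 cells. Their line differences were -4.15 and -2.46 (limma adjusted p = 0.317 and 0.54), and the 3T3-L1 si-Ctr arrays gave 3.8 to 23.5 for Adipoq, where the size leans on the added constant, and 26.9 to 1053.3 for Fabp4. In 3T3-L1 cells Fabp4 differed by 5.51 and 5.17 at 0 hr but by 2.94 at 36 hr, so its line difference depends on the times that are pooled. For the cartilage genes the lines started from unlike levels, since Col2a1 gave 6.2 to 12.4, Cnmd 1.3 to 6.7 and Acan 5.0 to 15.1 in the si-Ctr arrays of 3T3-L1 cells, where a lower signal could hardly be read. Dcn, bright in both lines, differed by -2.69 and -3.05 in 10T1/2 cells and by -0.76, -0.56 and -1.18 in 3T3-L1 cells (line difference -2.04 ± 0.26 SE, limma adjusted p = 0.24).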

How the data were processed

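Total RNA of the 12 cultures was hybridised to Affymetrix arrays after biotin labelling, per the labels' protocols. The deposited intensity values are linear signals of 45101 probe sets, scaled so that the mean of each array, trimmed by 2% at each end, is 100; this was read from the values, and the software that made them is not given in the sources used here. From these values the log2 of the intensity plus 0.8 (their 10th percentile) was quantile normalised over all 12 arrays. Symbols come from the deposited annotation, and of 38068 probe sets with 1 symbol, 33189 matched a RefSeq symbol, 2004 a synonym, and 2875 kept the deposited symbol. The probe set brightest over all arrays stood for a gene, and genes under the 40th percentile of mean signal (7.67) were left out, which leaves 12402 of 20670.

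The test was limma 3.58.1 in R 4.3.3 with Benjamini-Hochberg adjustment over all tested genes, on the 10 si-Setdb1 and si-Ctr arrays of both lines, with the pair (line, time, experiment letter) as a block, a siRNA difference per line and 3 residual degrees of freedom. Pairs come from the labelled line, time and letter, and p-values measure only the spread between these arrays. With 2 pairs, an exact sign-flip test of a single gene cannot go below p = 0.5, so none is given. Classes by size were counted over 10816 genes with a geometric mean signal of at least 16. The procedure was also run on simulated data, with independent noise drawn from the fit's own variances. Such data cannot show whether the spread of the 3T3-L1 pairs holds for 10T1/2 cells.

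Members and gene lists were chosen with earlier results of these data known. Genes are named by rule: up to 15 per direction for both pairs, 8 per direction and time, 15 per direction by smallest p and up to 6 and 3 per list. Lipid and cartilage genes outside it (Dgat1, Dgat2, Gpat3, Pnpla2, Papss2, Wwp2, Sox6) were chosen after their values were seen. So were Fasn, Plin4, Lep, Cidec, Cfd, Fkbp5, Bgn, Ogn and the genes opposite in direction at the 2 times. Alternatives covered scaling, the added constant, the filter, the probe set, the variance model, the block, left-out pairs and arrays, and the size and signal limits.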

Additional observations from a re-analysis of the deposited data

Results flagged for a closer look

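Genes at least 2-fold different in opposite directions in the 2 pairs stood out because the siRNA difference turned sign between the times. G0s2, an inhibitor of the lipase encoded by Pnpla2, gave 120.8 (labelled si-Setdb1) and 309.8 (si-Ctr) at 0 hr and 680.1 (labelled si-Setdb1) and 233.1 (si-Ctr) at 48 hr, so that its 48 hr minus its 0 hr difference was 2.82. Adhfe1, an alcohol dehydrogenase of mitochondria, gave 35.8 (labelled si-Setdb1) and 86.5 (si-Ctr) at 0 hr and 190.6 (labelled si-Setdb1) and 59.6 (si-Ctr) at 48 hr, a step of 2.76. Serpina3m had a step of 3.23, and 2 of its 4 signals were under the filter signal. Loxl4, which crosslinks collagen, gave 54.9 (labelled si-Setdb1) and 22.2 (si-Ctr) at 0 hr and 30.6 (labelled si-Setdb1) and 92 (si-Ctr) at 48 hr, a step of -2.74. Cxadr, a cell adhesion receptor, and 2610316D01Rik, a clone-named gene, had steps of -2.41 and -2.92. At 0 hr in 3T3-L1 cells G0s2 was higher, by 3.92 in experiment A and 2.87 in experiment B. The si-Ctr signals there were 0.7 and 4, under the filter signal, so these sizes lean on the added constant. The limma test between the times called 0 of 12402 genes, and each pair is a single array per siRNA.

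6 named genes were at least 2-fold different in one direction in both 10T1/2 pairs and had the other direction in all 3 pairs of 3T3-L1 cells. The 10T1/2 minus the 3T3-L1 difference was -3.25 for Angptl1, -2.49 for Aif1l, -2.02 for Aqp1, -2.12 for Tspan15 and -2.51 for Cmtm5, all lower in the 10T1/2 arrays labelled si-Setdb1, and 4.09 for Lcn2, which was higher. Aqp1, a water channel bright in both lines, gave 428.2 (labelled si-Setdb1) and 1114.4 (si-Ctr) at 0 hr and 131.9 (labelled si-Setdb1) and 489.3 (si-Ctr) at 48 hr in 10T1/2 cells, and its 3T3-L1 pairs differed by 0.60, 0.55 and 0.23. Lcn2 had a signal of 0.2 in the si-Ctr array at 0 hr, so its size there depends on the added constant, and its mean 10T1/2 difference of 2.15 became 0.78 with 16 added. That of Aif1l, -2.18, became -1.28. Some of the 3T3-L1 differences were small or dim. Aif1l differed by 0.071 and 0.021 at 0 hr and by 0.84 at 36 hr, and Cmtm5 by 0.093 in experiment B. The Aif1l signals at 36 hr, 5.4 (labelled si-Setdb1) and 2.6 (si-Ctr), were under the filter signal. So was the si-Ctr signal of Angptl1 at 0 hr in experiment A, 6.3. The 3T3-L1 si-Ctr arrays gave 5.1 to 12 for Tspan15, and at 0 hr 5.7 and 7.1 for Lcn2, under the filter signal. The limma test between the lines called none of these 6 genes. Its adjusted p-values were 0.235 for Angptl1, Aqp1 and Cmtm5, 0.24 for Aif1l and Tspan15 and 0.336 for Lcn2.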

How the results depend on the processing

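Calls over both pairs depended on the setting, with 0 higher and 0 lower as reported, 38 and 38 with 8 added before the logarithm, 88 and 95 with 16 added, 127 and 120 with the 60th percentile filter, 147 and 130 with a variance that follows the signal, and 11 and 2 with no replicate block, the experiment letter being dropped. Leaving out either 10T1/2 pair gave 0 to 0 calls, and the calls between the times were 0 under each of their alternatives. Genes at least 2-fold higher in both pairs numbered 51, 45, 20, 288 and 139 with 16 added, the 60th percentile filter, a size limit of 1.5, a 1.5-fold limit and no signal limit, in place of 78. Genes lower in both numbered 29, 30, 336 and 107 with that filter and those 3 limits, in place of 63, and those opposite in direction numbered 1, 0, 0, 63 and 63, in place of 6. Of those higher in both pairs, 76 remained on the deposited scale and 49 with the mean of probe sets.

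At 0 hr alone the 55 genes higher became 26, 23, 9, 31 and 123 with 16 added, the 60th percentile filter, a size limit of 1.5, a signal limit of 32 and no signal limit. The 40 lower became 17, 9, 5, 17 and 123 under the same alternatives, and 65 with the mean of probe sets. At 48 hr alone the 144 higher became 88, 50 and 260 with the filter, the size limit and no signal limit, and the 138 lower became 59, 30 and 250, or 69 with 16 added. Over named genes, 7 of 1742 values reversed: the Setdb1 difference (-0.080), and the time differences of Lrig1 (-0.020) and Cxcl12 (0.31), with the mean of probe sets, and Dgat2, Gpat3, Gpd1 and Cd36 without the 48 hr pair. Leaving out the 48 hr or the 0 hr pair gave -0.63 to 2.29 for Dgat2, -0.65 to 3.32 for Gpat3, -1.56 to 3.22 for Gpd1 and -0.82 to 2.47 for Cd36, since 1 pair then stands alone. The cause was not tested. A single array per group and signals near the background limit the dim genes most.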
